A study of Xenopus tropicalis with 44 samples.

Results

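The genes followed here build the machinery that holds, condenses, attaches and separates chromosomes at each cell division. They are the 71 rows of the table whose names belong to centromere proteins, the kinetochore, the spindle checkpoint, the chromosomal passenger complex, the anaphase-promoting complex (APC/C), cohesin with separase, condensin and Smc5/6, picked by name and not by any measured value, out of 28778 genes in all. The pattern also took cenpj, a centriole protein in spite of its name, and cenpv, a protein described at centromeres. The pattern was set with earlier results of these data known.

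Messenger RNA was sequenced from whole embryos of the frog Xenopus tropicalis, in 22 groups of 2 libraries. A morpholino (MO) is a synthetic antisense oligomer that blocks the translation or splicing of a chosen RNA. Embryos given morpholinos against both E2F1 and OTX1 (double MO) and embryos given the OTX1 morpholino alone (OTX1 MO) were taken at stages 7 and 8. Embryos given the E2F1 morpholino together with E2F1 mRNA (E2F1 rescue) were taken at stages 6, 7 and 8, and embryos given the E2F1 morpholino alone (E2F1 MO) at stages 3 to 8. Wild-type (WT) embryos without treatment were taken at stages 3 to 10 and at stage 13, where stages 3, 4 and 5 are embryos of 4, 8 and 16 cells. The study's title concerns E2f1 and Otx1 as maternal transcription factors in the earliest zygotic transcription. No group received a control morpholino, so the effect of injection itself cannot be told apart from that of a morpholino. Whether both libraries of a group stem from different clutches is not said, and p-values therefore reflect only how far such libraries lie apart, which may be technical.

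Early frog embryos divide fast and in near synchrony on proteins and RNA that the mother stored in the egg, and the embryo's own genes start to be transcribed in the blastula. At each division cohesin holds sister chromatids together and condensin compacts them. The kinetochore assembles on centromeric chromatin marked by CENP-A and binds spindle microtubules. Where the spindle checkpoint is active, which was not measured here, its proteins hold back the APC/C until all chromosomes are attached. The APC/C then has securin and cyclin B destroyed, which frees separase to cut cohesin. E2F factors are known in mammalian cells as activators of genes for DNA replication and, in part, for mitosis.

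Libraries held 9266513 to 37174326 counts (median 20541736), and 16064 genes were tested. Levels are given in CPM, read counts set against library size by the TMM method, which assumes that most genes do not change. A level is thus relative to the other genes of a library, neither an absolute amount nor an exact share of its RNA. In whole embryos fewer cells of a type and less RNA per cell cannot be told apart. Calls required an adjusted p under 0.05. The spread between replicates amounted to a biological coefficient of variation of 6.11%. In rescue libraries e2f1 itself took 2.25 to 3.91% of counts, against at most 0.0561% elsewhere. Summed levels of 21 adult blood, liver and ovarian follicle genes stayed at or below 1.03 CPM in all groups up to stage 9 and reached 24.9 to 25.3 CPM at stage 13.

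Of the 71 members 69 could be tested. The other 2, anapc13.2 and smc6, had almost no counts in any library, and the copies anapc13.1 and smc6.1 carry the signal. How alike such copies are in sequence was not measured. How the authors' counting divided reads between them is not stated, so the levels of anapc13.1, smc6.1, birc5 and birc5l are uncertain to that extent. RefSeq also lists the name birc5 as a synonym of birc5l, and the name cenpx as a synonym of cenpa. The members were abundant RNAs, with a median of 107 CPM over all libraries, against 14.3 CPM over all genes tested. They held 0.699 to 0.724% of all counts at WT stage 13, against 2.25 to 2.30% at WT stage 3.

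The store at the 4-cell stage was uneven within each complex. Levels of different genes are compared per kilobase of gene length. The APC/C coactivator cdc20 was the most abundant member at WT stage 3, with 1338 CPM per kilobase, and its partner coactivator fzr1, also called Cdh1, stood at 30.6. Among condensin genes ncapd2, the large HEAT-repeat subunit of condensin I, stood at 1018 CPM per kilobase, whereas ncapg2 of condensin II stood at 8.16. In the passenger complex, which carries the Aurora B kinase, birc5 (survivin) stood at 717 and its paralog birc5l at 144. The centromeric histone cenpa led the inner kinetochore with 480.5 CPM per kilobase and cenpp was lowest with 2.03. The kinesin cenpe led the outer kinetochore with 164 and ska2, of the Ska complex that follows microtubule ends, was lowest with 0.634. Among checkpoint genes mad2l1 (Mad2) was highest with 199 and mad1l1, its docking partner, lowest with 33.0. In cohesin rad21, the subunit that separase cuts, was highest with 337, and smc1b, known in mouse from meiotic cohesin, was near the bottom of the table with 0.171.

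Through WT development most of these RNAs fell relative to other genes under TMM scaling, and a smaller set rose. Each stage was compared with the one before it. Here and below, counts with 1 library left out come from refits for which the share of all genes called is not given. Such counts cannot be set against the shares of the full fit. At stage 4 against stage 3, 19 of 69 members were called (5 higher, 14 lower), where 8.81% of all tested genes were called, and this count fell to between 6 and 13 when 1 of the 4 libraries was left out (10 without WT stage 4 replicate 2, 7 without stage 3 replicate 2 and 6 without stage 4 replicate 1). At stage 5 against stage 4 12 were higher and 32 lower (27.3% of all genes called), and at stage 6 against stage 5 6 were higher and 17 lower (11.2% of all genes called; 15 members called without WT stage 5 replicate 1 or stage 6 replicate 2). At stage 7 against stage 6 12 were higher and 37 lower (46.9%), at stage 8 against stage 7 15 and 24 (44.1%), and at stage 9 against stage 8 8 and 11 (24.5%; 11 members called without WT stage 8 replicate 1). The steps to stages 7 and 9 also cross a change in the style of the column names, given below. The later steps were the widest. At stage 10 against stage 9 22 members were higher and 29 lower (63.2%), and at stage 13 against stage 10 14 were higher and 43 lower (76.9%).

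These directions rest in part on the scaling. With total counts alone in place of TMM, the log2 changes of all genes shift by 0.35 for stage 6 against stage 3, by 0.56 for stage 9 against stage 3, by -0.24 for stage 10 against stage 9 and by -0.28 for stage 13 against stage 10. Under that scaling the share of higher calls among called members became 70.6% instead of 26.3% at stage 4 against 3, 50.0% instead of 27.3% at stage 5 against 4, 50.0% instead of 26.1% at stage 6 against 5 and 42.6% instead of 24.5% at stage 7 against 6. With RLE factors it was 16.1% at stage 6 against 5, 48.8% instead of 38.5% at stage 8 against 7 and 52.6% instead of 42.1% at stage 9 against 8, where total counts alone gave 55.6%. At stage 10 against 9 it was 22.6% instead of 43.1%, and at stage 13 against 10 14.3% instead of 24.6%, both with total counts alone. The single genes named below with a change in WT stages kept their direction and their call in every scaling and without any 1 of the libraries compared, unless stated.

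Against stage 3, 57 of 69 members had moved by stage 6, 17 higher and 40 lower, where 48.1% of all tested genes were called, and total counts alone gave 50.0% higher calls instead of 29.8%. By stage 9 63 had moved, 21 higher and 42 lower, where 71.2% of all tested genes were called. Of the members called 33.3% were higher, against 55.8% of all genes called, and the median log2 change was -0.76 for the members and 0.22 for all tested genes. Of these calls 19 higher and 35 lower held in every setting and left-out library. By stage 13 62 members differed from stage 3, 17 higher and 45 lower (86.5% of all genes called), with medians of -1.30 for the members and 0.49 for all genes. Of the 69 members 33 had their highest WT mean at stage 3 and 35 their lowest at stage 13. These counts rest on TMM scaling alone, and those of all tested genes were not taken.

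**Figure D1:**
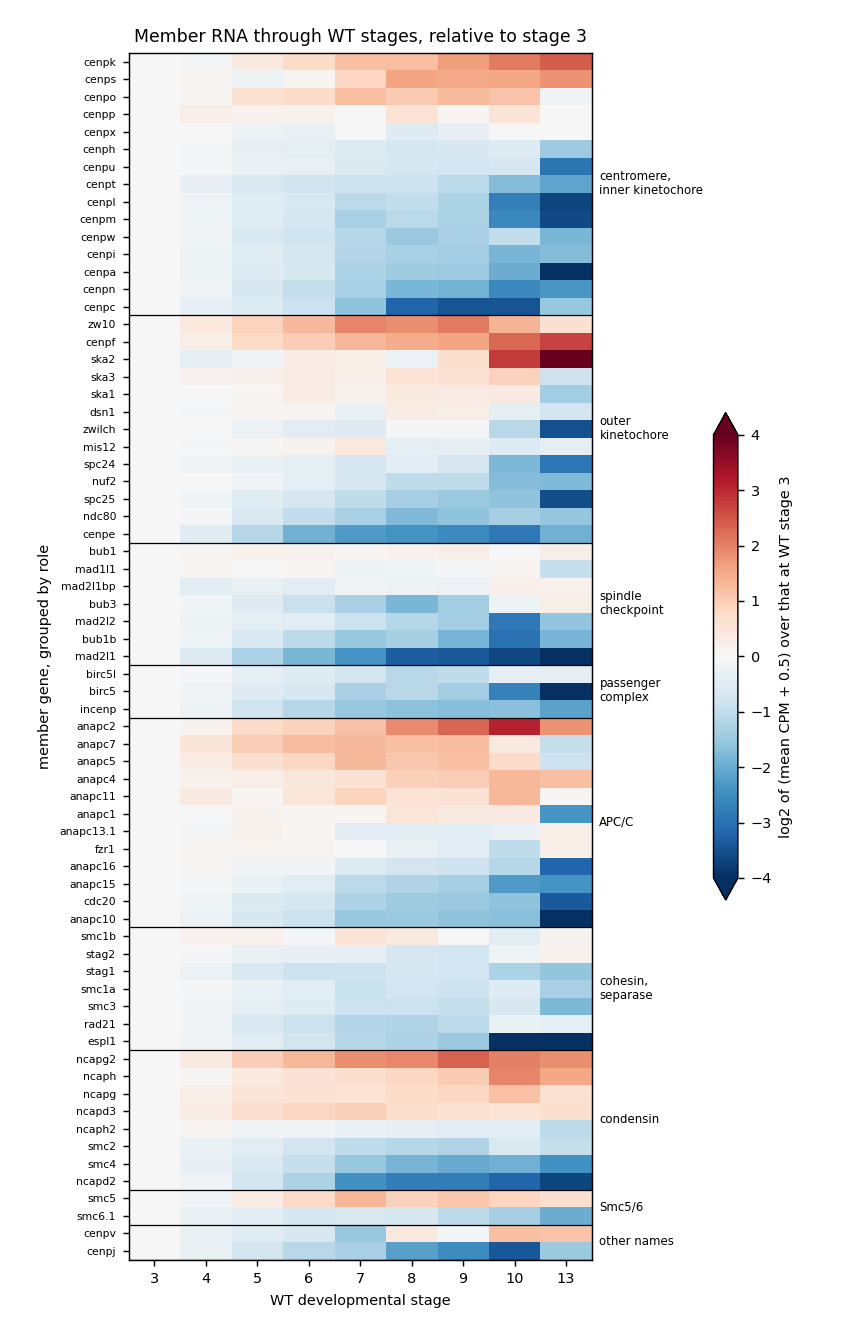
Log2 of the mean CPM (plus 0.5) at each WT stage over that at stage 3 for the 69 tested members, grouped by role and ordered within a role by stage 9; red is above stage 3 and blue below, and colours stop at 4 in either direction. Blue rows outnumber red rows from stage 5 on, and the columns for stages 10 and 13 hold the darkest cells, such as birc5, cenpa and espl1.

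For the counts by complex at stage 9 against stage 3 below, 71.2% of all tested genes were called. In the centromere and inner kinetochore, 11 of 15 genes were lower at stage 9 than at stage 3 and 3 were higher. With total counts alone 9 were lower and 4 higher. The steepest was cenpc, whose protein joins CENP-A nucleosomes to the outer kinetochore. Its libraries read 190.4 and 209.7 CPM at stage 3, 64.7 and 65.7 at stage 7, 18.7 and 24.1 at stage 8, 17.4 and 17.9 at stage 9, 15.8 and 19.5 at stage 10 and then 67.1 and 73.0 at stage 13. The level had already fallen by stage 7 and dropped again within 1 stage, between stages 7 and 8. It stayed there through stage 10 and was several times higher again at stage 13. The libraries on either side of these last 2 changes did not overlap. The log2 change was -1.61 (SE 0.0911, adjusted p = 1.2e-18) at stage 8 against stage 7 and 2.01 (SE 0.105, adjusted p = 4.6e-21) at stage 13 against stage 10. cenpa followed another course, with 883 and 908 CPM at stage 3, 319 and 336 at stage 9, 233 and 222 at stage 10 and then 11.8 and 12.3 at stage 13. Its loss was spread over cleavage and then became abrupt after stage 10, at -4.24 (SE 0.0700, adjusted p = 1.9e-38). cenpl and cenpm, of the network that sits on CENP-A chromatin, changed by -1.47 and -1.30 at stage 10 against stage 9. The genes that rose were few. cenpk stood at 29.0 and 32.3 CPM at stage 9, against 10.0 and 8.37 CPM at stage 3, a log2 change of 1.74 (SE 0.120, adjusted p = 5.2e-17). cenps, a histone-fold protein that also acts in DNA repair with cenpx, stood at 24.3 and 25.1 CPM at stage 8, against 13.2 and 15.6 CPM at stage 7, 0.78 (SE 0.138, adjusted p = 9.7e-06) on the log2 scale at stage 8 against stage 7.

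Outer kinetochore genes divided evenly, with 6 of 13 higher and 6 lower at stage 9 against stage 3 (7 and 4 with total counts alone). The 4 Ndc80 complex genes that form the microtubule-binding rod (ndc80, nuf2, spc24 and spc25) all fell, with changes of -1.62, -1.03, -0.69 and -1.49 on the log2 scale, where spc24 alone was not called with total counts alone. cenpe, the kinesin that moves chromosomes to the spindle equator, had 1655 and 1916 CPM at stage 3, 473 and 471 at stage 6 and then 298 and 308 at stage 9. Most of this drop lay before stage 6, where the change against stage 3 was -1.92 (SE 0.138, adjusted p = 1.8e-11). cenpf, a large coiled-coil protein of late G2 and mitosis, took the opposite course, its libraries reading 51.5 and 49.8 CPM at stage 3, 147 and 156 at stage 9, 247 and 253 at stage 10 and then 312 and 348 at stage 13. It was higher at stage 9 than at stage 3 by 1.58 (SE 0.0966, adjusted p = 4.0e-17). ska2 was close to absent through cleavage, with 0.706 and 0.718 CPM at stage 3 and 0.467 and 0.605 at stage 8, and reached 8.19 and 7.58 at stage 10 and then 24.6 and 29.2 at stage 13. Its partners did not share that course, since ska1 changed by -1.79 and ska3 by -1.78 at stage 13 against stage 10, where ska2 changed by 1.77 (SE 0.221, adjusted p = 1.9e-09). zw10, of the Rod-Zw10-Zwilch complex that brings dynein and Mad1 to kinetochores, had 51.9 and 58.4 CPM at stage 9, against 13.4 and 11.8 CPM at stage 3, a change of 2.13 (SE 0.109, adjusted p = 2.2e-21). zwilch of the same complex had 30.8 and 26.8 CPM at stage 3, 27.7 and 27.5 at stage 9 and then 1.45 and 2.71 at stage 13. It was called at stage 13 against stage 10, at -2.58, and its level at stage 10, not listed here, already lay below that at stage 9.

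Among the 7 spindle checkpoint genes, 4 were lower and 1 higher at stage 9 against stage 3 (4 and 3 with total counts alone). mad2l1, the protein that seizes Cdc20, fell at each step up to stage 8, with 294 and 293 CPM at stage 3, 82.8 and 80.6 at stage 6, 28.2 and 28.4 at stage 9 and then 15.6 and 17.9 at stage 13. The change at stage 9 against stage 3 was -3.38 (SE 0.0922, adjusted p = 8.4e-31). bub1b (BubR1) changed by -1.88 (SE 0.0607, adjusted p = 2.6e-28) over the same span, and the kinase bub1 by 0.22, the smallest called change of this group. bub3, their common partner, first fell and then returned, with 391 and 399 CPM at stage 3, 112 and 112 at stage 8, 367 and 321 at stage 10 and then 441 and 491 at stage 13. At stage 10 against stage 9 it was higher by 1.19 (SE 0.0699, adjusted p = 4.1e-19). mad2l2, also called Rev7 and known from DNA damage tolerance, changed by -1.51 at stage 10 against stage 9 and by 1.33 at stage 13 against stage 10.

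All 3 passenger complex genes were lower at stage 9 than at stage 3, under every scaling. incenp, the scaffold that binds Aurora B, had 1919 and 2003 CPM at stage 3, 871 and 922 at stage 6 and then 601 and 600.0 at stage 9, a change of -1.71 (SE 0.0498, adjusted p = 8.1e-30). The survivin paralogs then parted. birc5 had 197 and 208 CPM at stage 9, 93.5 and 69.0 at stage 10 and then 2.49 and 1.94 at stage 13, whereas birc5l had 81.0 and 81.0, 144 and 119 and 118 and 129.9. Within each library the ratio of birc5 to birc5l per kilobase, which does not depend on scaling, was 5.17 and 4.79 at stage 3, 3.78 and 3.99 at stage 9, 1.01 and 0.896 at stage 10 and then 0.0326 and 0.0231 at stage 13. The paralog that was the scarcer at stage 3 thus made up nearly all of the pair at stage 13.

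**Figure D2:**
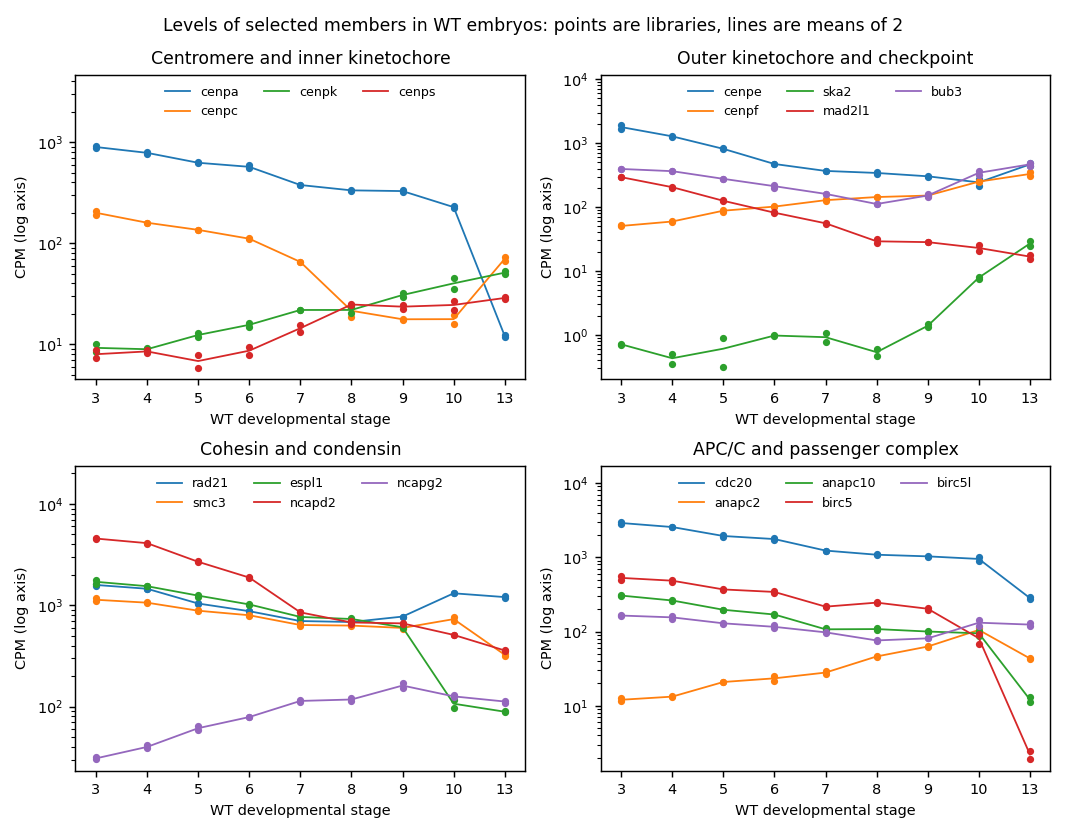
Levels in CPM (log axis) of selected members at WT stages 3 to 10 and 13; points are libraries and lines join the means of 2. cenpc drops between stages 7 and 8 and recovers at stage 13, espl1 drops between stages 9 and 10, and birc5 and cenpa drop between stages 10 and 13, while ska2, cenpf and cenpk climb.

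APC/C genes also divided evenly, 6 of 12 tested higher and 6 lower at stage 9 against stage 3. cdc20, which activates the complex in mitosis, had 2839 and 2954 CPM at stage 3, 1721 and 1799 at stage 6, 1023 and 1036 at stage 9 and then 275 and 289.7 at stage 13. It changed by -1.49 (SE 0.0528, adjusted p = 6.4e-27) at stage 9 against stage 3. fzr1, which activates it in G1 and lets embryonic cells leave the cycle in flies, had 99.2 and 99.9 CPM at stage 3, 48.8 and 48.4 at stage 10 and then 113 and 114 at stage 13, 1.22 (SE 0.0635, adjusted p = 4.0e-21) at stage 13 against stage 10. The ratio of cdc20 to fzr1 per kilobase was 42.98 and 44.37 at stage 3, 21.5 and 21.5 at stage 9, 30.7 and 28.0 at stage 10 and then 3.63 and 3.82 at stage 13. The catalytic core rose, with anapc2, the cullin, at 12.6 and 11.5 CPM at stage 3, 64.3 and 61.4 at stage 9 and then 112 and 98.1 at stage 10, a change of 2.38 (SE 0.0996, adjusted p = 2.2e-24) at stage 9 against stage 3. Its RING partner anapc11 stood at 12.7 and 9.77 CPM at stage 9, against 6.99 and 7.60 CPM at stage 3, and its call was lost without WT stage 9 replicate 1 (adjusted p = 0.051). anapc7, a TPR scaffold subunit, changed by 1.25 and anapc5, a platform subunit, by 1.22. anapc10, which helps dock substrates, had 297 and 313 CPM at stage 3, 97.6 and 103 at stage 9 and then 11.2 and 13.0 at stage 13. Together with anapc1, the largest platform subunit (36.7 and 36.2 CPM at stage 13, against 241 and 242 CPM at stage 10), it fell after stage 10, with log2 changes of -2.96 and -2.73.

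In cohesin 6 of 7 genes were lower at stage 9 than at stage 3, under each scaling, and none was higher. smc1b stayed near 0 and was not called (adjusted p = 1). The ring genes then recovered unequally. rad21 had 1540.1 and 1629 CPM at stage 3, 683 and 682 at stage 8, 1308 and 1314 at stage 10 and then 1171 and 1234 at stage 13, whereas smc3 had 1099 and 1166, 635 and 623, 758 and 699.9 and 318 and 329.8 at those stages. The ratio of rad21 to smc3 per kilobase was 3.27 and 3.33 at stage 13, against 1.11 and 1.19 at stage 9. The 2 forms of the accessory subunit changed places, with stag1 over stag2 per kilobase at 1.48 and 1.40 at stage 3, 1.03 and 0.975 at stage 6, 1.41 and 1.44 at stage 9, 0.609 and 0.732 at stage 10 and then 0.419 and 0.430 at stage 13. espl1, the separase protease, had 96.9 and 116 CPM at stage 10, against 618 and 594 CPM at stage 9. Its change at stage 10 against stage 9, -2.51 (SE 0.0903, adjusted p = 4.2e-22), was the largest fall of any member in that step.

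Condensin genes moved in both directions, also within condensin I. All vertebrate condensin contains smc2 and smc4. Condensin I adds ncapd2, ncapg and ncaph, and condensin II adds ncapd3, ncapg2 and ncaph2. ncapd2 had 4484 and 4617 CPM at stage 3, 2708 and 2658 at stage 5, 1882 and 1867 at stage 6, 849.5 and 850.4 at stage 7 and then 652 and 672 at stage 9. It fell at each of the steps to stages 5, 6, 7 and 8, most at stage 7 against stage 6 (-1.14 (SE 0.0494, adjusted p = 4.4e-22)). The other condensin I genes rose, ncapg by 0.82 and ncaph by 1.02 at stage 9 against stage 3. In condensin II ncapg2 had 152 and 170.1 CPM at stage 9, against 30.0 and 31.5 CPM at stage 3, 2.39 (SE 0.0829, adjusted p = 3.4e-27), and ncapd3 rose by 0.61. ncaph2 changed by -0.47, a call that was lost with total counts alone, where the change was 0.10. The shared subunits smc2 and smc4 changed by -1.22 and -2.02. The ratio of ncapd2 to ncapd3 per kilobase ran at 105 and 95.7 at stage 3, 39.95 and 34.98 at stage 5, 23.9 and 21.8 at stage 6, 9.62 and 9.44 at stage 7 and then 5.18 and 4.94 at stage 13. The ratio of ncaph to ncaph2 ran the opposite way, at 0.239 and 0.223 at stage 3, 0.656 and 0.642 at stage 9 and then 1.44 and 1.38 at stage 13. At stage 13 against stage 10 7 of 8 condensin genes were lower and none higher (5 lower with RLE factors, 1 higher and 5 lower with DESeq2). Of all tested genes 76.9% were called in that step.

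**Figure D3:**
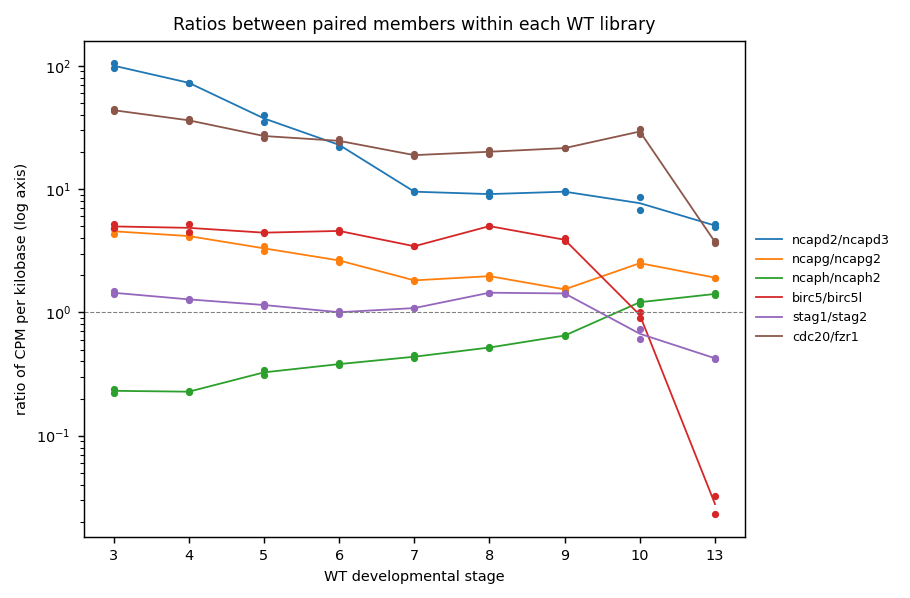
Ratios of CPM per kilobase between paired members within each WT library, on a log axis, with a dashed line at 1; points are libraries and lines join means of 2. The ncapd2/ncapd3 ratio drops from stage 3 to stage 7, birc5/birc5l drops after stage 9, stag1/stag2 crosses 1 between stages 9 and 10, and ncaph/ncaph2 climbs across 1 between stages 9 and 10.

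Outside these complexes, smc5 of the Smc5/6 DNA repair complex had 14.7 and 12.1 CPM at stage 3, 35.4 and 33.0 at stage 7 and then 27.3 and 31.4 at stage 9, 1.14 (SE 0.103, adjusted p = 2.8e-13) at stage 9 against stage 3. Its partner smc6.1 changed by -1.06. cenpj had 261 and 261 CPM at stage 3, 24.8 and 23.7 at stage 10 and then 90.0 and 94.4 at stage 13, with a called rise of 1.92 at stage 13 against stage 10.

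Few of these RNAs were called against WT in E2F1 MO embryos during cleavage. In the full fit the share of all genes called was smaller still at each of these stages, and the part of the members' abundance in this was not tested. At stage 3 12 of 69 members were called (3 higher, 9 lower; 7.55% of all genes called), a number that came down to between 2 and 5 without WT stage 3 replicate 1 (5), WT stage 3 replicate 2 (4) or E2F1 MO stage 3 replicate 1 (2). With total counts alone 7 were called, 42.9% of them higher instead of 25.0%. At stage 4 5 were called (3.13% of all genes; 3 without WT replicate 1, 2 without WT replicate 2 and 1 without E2F1 MO replicate 1), and the share of higher calls was 60.0% with RLE factors instead of 80.0%. At stage 5 5 were called (3.24%; 2 without WT replicate 1 and 3 without either E2F1 MO library), and at stage 6 2 (1.95%). The same pair of genes, zw10 and anapc5, was higher at all 4 stages.

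zw10 had the largest called change among the members before stage 7. Its E2F1 MO libraries read 32.9 and 28.9 CPM at stage 3, 42.0 and 35.1 at stage 4, 56.5 and 52.4 at stage 5 and then 65.2 and 65.5 at stage 6, against 13.4 and 11.8, 18.5 and 15.8, 21.1 and 26.6 and 31.1 and 32.9 in WT libraries of those stages. Every E2F1 MO library lay above every WT library of its stage. The log2 changes were 1.30 (SE 0.115, adjusted p = 2.1e-11), 1.17 (SE 0.106, adjusted p = 5.6e-11), 1.18 (SE 0.0985, adjusted p = 3.4e-12) and 1.03 (SE 0.0938, adjusted p = 6.5e-11). The difference was already present at the 4-cell stage and both groups climbed from stage 3 to stage 6. anapc5 read 33.4 and 32.4 CPM at stage 3, 45.2 and 37.2 at stage 4, 54.4 and 49.9 at stage 5 and then 59.0 and 61.9 at stage 6 in E2F1 MO libraries, against 23.5 and 24.9, 29.9 and 30.3, 40.3 and 35.2 and 43.5 and 44.1 in WT libraries. Its changes were 0.44, 0.46, 0.47 and 0.47, and the call at stage 4 was lost without E2F1 MO stage 4 replicate 1 (adjusted p = 0.10). Embryos given E2F1 mRNA with the morpholino showed the same pair at stage 6. zw10 read 64.8 and 63.0 CPM and anapc5 56.6 and 57.2 CPM in rescue libraries, changes against WT of 0.996 (SE 0.0944, adjusted p = 1.8e-10) and 0.38 (SE 0.0739, adjusted p = 7.6e-04). In all 3 members were called in rescue embryos at stage 6 (3.01% of all genes called), all higher, and with total counts alone 50.0% of the calls were higher. Between rescue and E2F1 MO embryos at stage 6 edgeR called 0 members (0.131% of all genes called), with 9 at an unadjusted p under 0.05, and DESeq2 called 0.

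**Figure D4:**
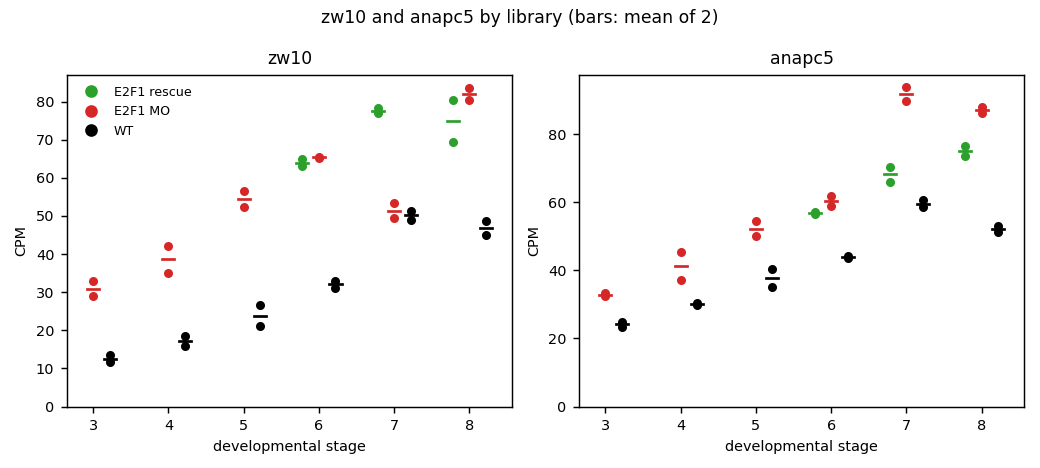
zw10 and anapc5 in CPM by library at stages 3 to 8 in E2F1 rescue (stages 6 to 8), E2F1 MO and WT embryos; points are libraries and bars are means of 2. For zw10 the E2F1 MO points lie above the WT points at stages 3 to 6 and at stage 8 and lie among them at stage 7.

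At stage 7 the picture in E2F1 MO embryos widened to 51 of 69 members, 20 higher and 31 lower, where 47.2% of all tested genes were called, and at stage 8 it held 43 (19 higher, 24 lower; 49.8% of all genes). The members' shares called, 73.9% and 62.3%, stood above these backgrounds. The members were more abundant than most genes, and the part of depth in this was not tested. The comparisons of E2F1 MO, E2F1 rescue, OTX1 MO and double MO with WT at a stage all use the same 2 WT libraries. E2F1 MO and rescue columns name the treatment before the stage throughout, and WT columns after it. Before stage 7 these groups write the stage itself alike. At stages 7 and 8 WT, OTX1 MO and double MO columns write it as s7 or s8. E2F1 MO and rescue columns write st7 or st8 there, and this is the change in name style meant here. Whatever this style stands for cannot be told apart from the treatment there, and its part in the wider picture was not tested.

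Among members above 5 CPM in either group, checkpoint genes carried the largest falls at stage 7. mad2l1 read 22.4 and 25.2 CPM in E2F1 MO libraries, against 56.5 and 55.0 CPM in WT libraries, -1.23 (SE 0.0877, adjusted p = 1.8e-15). mad2l1bp, the p31comet protein that takes Mad2 out of the checkpoint complex, read 72.8 and 70.8 CPM in E2F1 MO libraries and 131 and 128 CPM in WT libraries, -0.85 (SE 0.137, adjusted p = 1.3e-05). bub1b changed by -0.86 (SE 0.0594, adjusted p = 7.1e-16). The kinase bub1 ran the other way, with 265 and 266 CPM in E2F1 MO libraries and 177 and 180.2 CPM in WT libraries, 0.57 (SE 0.0551, adjusted p = 1.1e-11). In no case did the libraries of the 2 groups overlap. Thus 4 checkpoint genes were lower and 2 higher, where 47.2% of all tested genes were called.

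Condensin genes divided as well, 3 higher and 4 lower at stage 7 (47.2% of all tested genes called). ncaph read 158 and 158 CPM in E2F1 MO libraries, against 73.1 and 75.2 CPM in WT libraries, and was the largest rise of any member at 1.09 (SE 0.0614, adjusted p = 1.0e-18). ncapd2, of the same complex, read 594 and 583 CPM in E2F1 MO libraries and 849.5 and 850.4 CPM in WT libraries, -0.53 (SE 0.0490, adjusted p = 3.5e-12). smc2 and smc4 changed by -0.50 and -0.53. In the kinetochore cenpc was higher, at 111 and 112 CPM in E2F1 MO libraries and 64.7 and 65.7 CPM in WT libraries, 0.77 (SE 0.0786, adjusted p = 5.3e-11). ndc80 and cenpe changed by -0.67 and -0.53. smc5 rose by 0.75 (SE 0.0826, adjusted p = 3.2e-10), anapc5 by 0.62 and fzr1 by 0.47. zw10, the gene set apart before, was not called at stage 7, with 49.5 and 53.3 CPM in E2F1 MO libraries and 51.3 and 49.0 CPM in WT libraries (log2 change 0.04, adjusted p = 0.79).

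By stage 8 the largest differences lay at the centromere. cenpc read 92.5 and 95.1 CPM in E2F1 MO libraries, against 18.7 and 24.1 CPM in WT libraries, 2.14 (SE 0.0907, adjusted p = 1.2e-22). The E2F1 MO libraries lay a little below their stage 7 values, and the WT libraries far below theirs. cenps read 5.39 and 5.67 CPM in E2F1 MO libraries and 24.3 and 25.1 CPM in WT libraries, -2.16 (SE 0.151, adjusted p = 1.2e-15). cenpv, scarce in all groups, read 0.784 and 0.806 CPM in E2F1 MO libraries and 6.58 and 6.96 CPM in WT libraries, -3.08 (SE 0.320, adjusted p = 9.6e-11). Both cenps and cenpv had risen between WT stages 7 and 8, by 0.78 and 2.24, and dsn1 of the Mis12 complex, which had risen by 0.58 in WT, read 72.9 and 71.6 CPM in E2F1 MO libraries and 143 and 147 CPM in WT libraries, -1.01 (SE 0.0613, adjusted p = 1.7e-17). mis12 of the same complex moved the opposite way in both respects, by -0.82 between WT stages 7 and 8 and by 0.85 (SE 0.0948, adjusted p = 5.2e-10) in E2F1 MO against WT at stage 8. anapc2 changed by -0.76, birc5 by -0.72, ska3 by -0.82, smc5 by 0.85 and zw10 by 0.81.

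A set of members thus had a difference at stage 8 opposite in sign to the WT step between stages 7 and 8, and both comparisons contain the WT stage 8 libraries. The difference between the E2F1 MO effect at stage 8 and that at stage 7 was called for 34 of 69 members (17 higher, 17 lower; 39% of all genes called), among them cenpc at 1.37 and cenps at -1.43. Between stages 7 and 6 the effect differed for 28 members (9 higher, 19 lower; 29.5%). In that test only the stage 7 comparison crosses the change in column name style.

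E2F1 mRNA given with the morpholino moved some of these genes toward WT and left others. Against WT, 27 members were called in rescue embryos at stage 7 (18 higher, 9 lower; 33.3% of all genes called) and 47 at stage 8 (29 higher, 18 lower; 52.2%). At stage 7 the share of higher calls was 48.1% instead of 66.7% with total counts alone. Against E2F1 MO, 43 were called at stage 7 (26 higher, 17 lower; 43.4%) and 40 at stage 8 (30 higher, 10 lower; 39.9%), with 48.9% instead of 60.5% higher at stage 7 with total counts alone.

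ncapd2 showed the largest rise over E2F1 MO at stage 7 among members above 5 CPM. It read 1204 and 1191 CPM in rescue libraries, against 594 and 583 CPM in E2F1 MO libraries and 849.5 and 850.4 CPM in WT libraries. The change was 1.02 (SE 0.0494, adjusted p = 8.4e-21) against E2F1 MO and 0.49 (SE 0.0489, adjusted p = 5.7e-11) against WT, so the rescue level stood above both. At stage 8 it read 929.8 and 1042 CPM in rescue libraries, against 617 and 621 CPM in E2F1 MO libraries and 692 and 659 CPM in WT libraries. dsn1 read 133 and 134 CPM in rescue libraries at stage 7, above E2F1 MO by 0.72 and above WT by 0.46. At stage 8 dsn1 was above E2F1 MO by 0.82. mad2l1 rose over E2F1 MO by 0.55 at stage 7 and 0.69 at stage 8, and bub1b by 0.72 at stage 7. At stage 7 mad2l1 in rescue embryos was still below WT, with a change of -0.68 (SE 0.0861, adjusted p = 2.7e-08), with 34.5 and 35.2 CPM. ncaph was lower than in E2F1 MO embryos, with a log2 change of -0.66 (SE 0.0610, adjusted p = 6.1e-12), and at 102 and 98.7 CPM in rescue libraries it remained above WT by 0.44.

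cenpc stayed high in rescue embryos. It read 102 and 106 CPM at stage 7 and 109 and 111 CPM at stage 8 in rescue libraries, above WT by 0.68 and 2.37. At stage 7 it was not called against E2F1 MO (log2 change -0.09, adjusted p = 0.39). At stage 8 smc5 and mis12 were above WT by 1.19 (SE 0.0892, adjusted p = 1.0e-14) and 1.12 (SE 0.0956, adjusted p = 3.8e-13), and cenps was below it with a change of -1.30 (SE 0.147, adjusted p = 6.3e-10). cenps in rescue embryos was between the other groups at stage 8, with 10.8 and 9.29 CPM, and above E2F1 MO by 0.86. mad2l1bp, with 48.4 and 84.5 CPM, differed between the rescue libraries at stage 8 by more than in any other group of these stages, and was below WT with a change of -0.90 (SE 0.142, adjusted p = 8.4e-06).

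OTX1 MO embryos shared some of these differences and not others. At stage 7 50 members were called against WT (17 higher, 33 lower; 49.2% of all genes called) and at stage 8 50 (20 higher, 30 lower; 54.6%). Most cohesin genes were lower, 5 of 7 at stage 7 and 5 of 7 at stage 8 with none higher under any scaling. The cohesin genes involved at stage 7 were smc1a, rad21, stag2, espl1 and smc1b, the last near 0, with stag2 changing by -0.58 (SE 0.0622, adjusted p = 1.7e-10). Within libraries the ratio of stag1 to stag2 per kilobase was 1.66 and 1.77 in OTX1 MO libraries at stage 7, and 1.09 and 1.08 in WT libraries. In E2F1 MO libraries it was 1.72 and 1.67 and in rescue libraries 1.01 and 1.05.

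The inner kinetochore held large falls. cenps read 4.67 and 5.31 CPM at stage 7 and 4.46 and 5.17 CPM at stage 8 in OTX1 MO libraries, against 13.2 and 15.6 CPM and 24.3 and 25.1 CPM in WT libraries. The changes were -1.53 (SE 0.152, adjusted p = 2.2e-11) and -2.36 (SE 0.151, adjusted p = 4.3e-17). Its partner cenpx changed by -1.06 and -0.47. cenpc changed direction between the stages, with 44.3 and 40.0 CPM at stage 7 and 49.0 and 45.5 CPM at stage 8 in OTX1 MO libraries, -0.63 (SE 0.0814, adjusted p = 1.6e-08) and 1.15 (SE 0.0916, adjusted p = 3.5e-14) against WT. The OTX1 MO level was nearly the same at both stages, below WT at stage 7 and above it at stage 8. mis12 changed by -0.93 at stage 7.

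Checkpoint genes differed from their pattern in E2F1 MO embryos. mad2l1 was lower at stage 7 in OTX1 MO embryos too, at 25.6 and 26.8 CPM, -1.09 (SE 0.0872, adjusted p = 5.7e-14). mad2l1bp was higher, at 178 and 173 CPM, 0.44 (SE 0.134, adjusted p = 0.0081), where E2F1 MO gave -0.85. bub1b changed by -0.70 at stage 7 and -1.12 at stage 8, and bub3 by -0.47 at stage 7. incenp was higher at both stages, with 943 and 940.3 CPM and 849.7 and 833 CPM, 0.45 (SE 0.0484, adjusted p = 1.6e-10) and 0.41 (SE 0.0486, adjusted p = 1.2e-09). dsn1 was higher by 0.58 at stage 7, where E2F1 MO gave -0.26. Condensin II differed by gene, with ncapd3 higher by 0.47 and 0.68 and ncaph2 lower, at -0.26 and -0.24 at stages 7 and 8. At stage 8 spc24, zwilch, cenpe and ska3 changed by -0.58, -0.85, -0.74 and -0.79 on the log2 scale, and fzr1 and smc5 rose by 0.77 and 0.71. The difference between the OTX1 MO effect at stage 8 and that at stage 7 was called for 28 members (16 higher, 12 lower; 31.8% of all genes called).

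**Figure D5:**
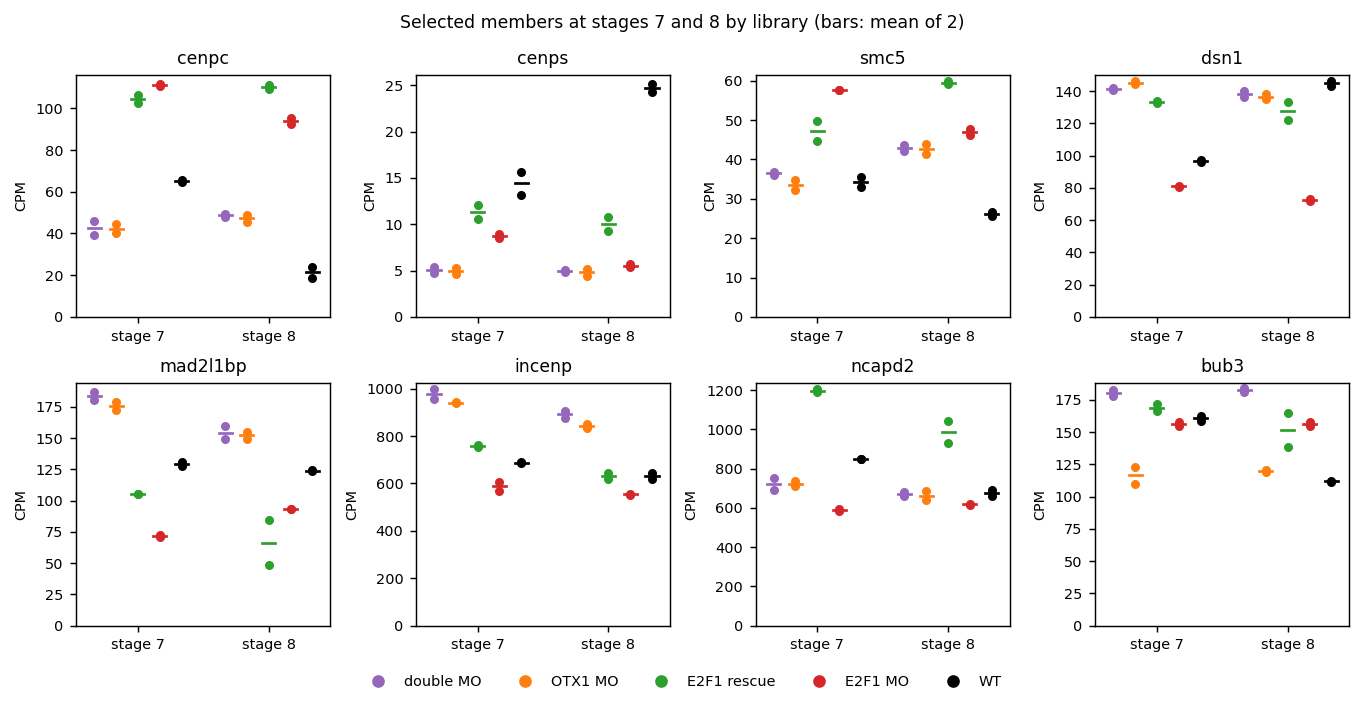
Levels in CPM by library of 8 members at stages 7 and 8 in double MO, OTX1 MO, E2F1 rescue, E2F1 MO and WT embryos; points are libraries and bars are means of 2. Double MO and OTX1 MO points lie close together in all panels but that of bub3, and cenpc in WT is lowest of all groups at stage 8.

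Double MO embryos stood close to OTX1 MO embryos. The columns of these groups share a name style that E2F1 MO columns do not have, and its part in the closeness was not tested. Against WT, 52 members were called at stage 7 (23 higher, 29 lower; 50.3% of all genes called) and 50 at stage 8 (23 higher, 27 lower; 55.2%). Against OTX1 MO 7 were called at stage 7 (3.74% of all genes) and 5 at stage 8 (2.68%), all of them higher. At stage 7 this count was 4 without OTX1 MO replicate 1, 2 without OTX1 MO replicate 2 and 2 without double MO replicate 2, and without double MO replicate 1 it was 13, with 8 higher and 5 lower. The direction was mixed at stage 7 also without a filter on low counts (6 higher, 3 lower) and with DESeq2 (8 higher, 1 lower). At stage 8 the count was 3 without OTX1 MO replicate 1 and 2 without double MO replicate 2. Against E2F1 MO 41 were called at stage 7 (18 higher, 23 lower; 44.6%) and 36 at stage 8 (16 higher, 20 lower; 43.2%).

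The genes above OTX1 MO at both stages were bub3, zwilch, zw10, mis12 and bub1b. bub3 read 183 and 178 CPM at stage 7 and 184 and 181 CPM at stage 8 in double MO libraries, against 123 and 109.8 CPM and 121 and 119 CPM in OTX1 MO libraries. E2F1 MO libraries read 158 and 155 CPM and 154 and 158 CPM, and WT libraries 163 and 159 CPM and 112 and 112 CPM. Double MO was above OTX1 MO by 0.63 (SE 0.0685, adjusted p = 1.8e-08) at stage 7 and 0.61 (SE 0.0679, adjusted p = 3.4e-08) at stage 8, with every library apart. Its call held in every setting and left-out library at both stages. zwilch was above OTX1 MO by 0.53 and 0.56, zw10 by 0.44 and 0.34 and mis12 by 0.36 and 0.39 at stages 7 and 8. Each of these calls was lost with some libraries left out. At stage 7 without double MO replicate 2 the adjusted p was 0.14 for zwilch, 0.058 for zw10 and 0.25 for mis12. At stage 8 without double MO replicate 2 it was 0.13 for zwilch, 0.15 for zw10 and 0.11 for mis12. Both OTX1 MO libraries at stage 7 also ended the call of zwilch when left out, replicate 2 that of mis12 at stage 7, replicate 1 that of mis12 at stage 8, and each library of stage 8 that of zw10. bub1b, whose protein binds Bub3, was above OTX1 MO by 0.28 at stage 7, lost without OTX1 MO replicate 2 (adjusted p = 0.085), and by 0.47 (SE 0.0594, adjusted p = 4.8e-07) at stage 8. The scarce ska2 was above OTX1 MO by 1.07 at stage 7, and was called there without double MO replicate 1 and lost its call without any other of these libraries. Against E2F1 MO, differences called at both stages included those of mad2l1bp, incenp, dsn1 and cenpc. mad2l1bp read 181 and 187 CPM at stage 7 in double MO libraries, 1.36 (SE 0.138, adjusted p = 1.2e-08) against E2F1 MO. incenp read 1000.3 and 956 CPM at stage 7, 0.73 (SE 0.0486, adjusted p = 2.4e-16), and dsn1 142 and 141 CPM, 0.80 (SE 0.0602, adjusted p = 9.4e-15). cenpc read 46.2 and 39.3 CPM at stage 7 and 49.5 and 47.9 CPM at stage 8, lower than E2F1 MO, with changes of -1.38 (SE 0.0813, adjusted p = 5.3e-18) and -0.95 (SE 0.0798, adjusted p = 4.2e-13).

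A test of whether the effects of the 2 morpholinos add up on the log2 scale was called for 39 of 69 members at stage 7 (29 higher than the sum, 10 lower; 34.3% of all genes called) and 33 at stage 8 (19 higher, 14 lower; 35.9%). Both single effects are taken against the same WT libraries, and no group received a control morpholino. An effect common to all injected embryos would enter the sum 2 times and give a departure of opposite sign. Neither this nor a difference tied to the column name style of E2F1 MO can be told apart from an interplay of the morpholinos. mad2l1 is an example at stage 7. It changed against WT by -0.95 in double MO, -1.09 in OTX1 MO and -1.23 in E2F1 MO, so the double value was no larger than either single one, and the departure from the sum was 1.36 (SE 0.126, adjusted p = 1.1e-11). At stage 8 cenpc changed by 1.19 in double MO, 1.15 in OTX1 MO and 2.14 in E2F1 MO, a departure of -2.10 (SE 0.121, adjusted p = 2.3e-17). cenps changed by -2.32, -2.36 and -2.16 in the same order, a departure of 2.19 (SE 0.220, adjusted p = 1.4e-10).

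Other genes of chromosome segregation, from a list of 59 names of which 49 were tested, gave the wider setting. At WT stage 9 against stage 3, 13 were higher and 27 lower, where 71.2% of all tested genes were called, with a median log2 change of -0.50. In E2F1 MO against WT 11 were higher and 17 lower at stage 7, and 18 were higher and 14 lower at stage 8, where 47.2% and 49.8% of all genes were called. In rescue against E2F1 MO 15 were higher and 9 lower at stage 7 (43.4% of all genes called). In OTX1 MO against WT 12 were higher and 21 lower at stage 7, then 16 higher and 20 lower at stage 8 (49.2% and 54.6% of all genes called). In double MO against WT the counts were 12 higher and 22 lower at stage 7, and 19 higher and 18 lower at stage 8 (50.3% and 55.2%). The list genes top2a, fbxo43 and aurkb act close to the members and were chosen after their values were seen. At stage 7 all were lower in E2F1 MO embryos than in WT embryos. top2a, the topoisomerase that untangles sister chromatids, averaged 192 ± 1.67 CPM in E2F1 MO embryos and 496 ± 10.6 CPM in WT embryos (SD, n = 2 each), -1.37 (SE 0.110, adjusted p = 7.9e-11). fbxo43, the Emi2 protein that restrains the APC/C in the egg, averaged 164 ± 0.569 CPM and 389 ± 5.04 CPM in those groups, -1.25 (SE 0.0644, adjusted p = 6.7e-20). The kinase aurkb averaged 126 ± 0.622 CPM and 258 ± 6.41 CPM, -1.03 (SE 0.0556, adjusted p = 2.7e-19). All were higher in rescue than in E2F1 MO embryos at stage 7, by 1.04, 1.17 and 0.86. nipbl, the loader of cohesin, averaged 449 ± 7.11 CPM in E2F1 MO embryos and 208 ± 5.63 CPM in WT embryos, 1.11 (SE 0.132, adjusted p = 1.6e-07), and was lower in rescue than in E2F1 MO embryos, at -1.11 (SE 0.133, adjusted p = 2.1e-07). In OTX1 MO against WT at stage 7 the changes were -0.68 for top2a, -0.88 for fbxo43, -0.73 for aurkb and 0.90 for nipbl. In E2F1 MO against WT at stage 8 top2a and aurkb were lower, both at -0.45. There fbxo43 and nipbl were higher, at 0.32 and 0.67. cdc26, a small APC/C subunit, averaged 21.3 ± 3.38 CPM in OTX1 MO embryos and 6.25 ± 0.311 CPM in WT embryos at stage 7, 1.77 (SE 0.140, adjusted p = 3.9e-14).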

How the data were processed

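Messenger RNA of whole embryos was made into stranded libraries, per the labels' protocols. For each gene the deposited table of the authors holds whole-number read counts, not normalized, and a length. Per the submitters' processing notes the tools were fastp, STAR 2.7.0e, deepTools and featureCounts 2.0.1. Neither build, annotation nor strand setting is named in these sources, and overlapping or antisense genes cannot be told apart. All 71 member names match RefSeq symbols for UCB_Xtro_10.0, which served for names alone. Gene lengths, as deposited by the authors (other unit: bases), served only for levels per kilobase.

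Groups were taken from the labels and columns matched by name. Counts were fitted with edgeR 4.0.16 (quasi-likelihood, robust, TMM factors of 0.771 to 1.16, filterByExpr with a minimum count of 10) in R 4.3.3 over all 44 libraries, with a mean per group and 22 residual degrees of freedom. Benjamini-Hochberg adjustment of p-values spanned the 16064 tested genes in each of 36 comparisons. The method was tested on counts simulated from its own fitted means and dispersion trend. Such a run cannot show whether real replicates vary in that way. CPM values are counts over the TMM-scaled library size. Replicates of each group correlated at 0.990 to 0.999, and their counts differed beyond sampling noise (chi-square 1.40 to 32.9 per gene). The replicates lay furthest apart by chi-square in E2F1 rescue at stage 8 (32.9), WT at stage 10 (14.3) and double MO at stage 7 (13.6). A floor of 3 counts was 0.0706 to 0.329 CPM and covers counting error only. Alternatives were RLE factors, total counts alone, no filter, a replicate block, DESeq2 1.42.0 and leaving out each library. The members and gene lists were chosen with earlier results of these data known. Any member could be named, and those given library by library were mostly the called members with the largest changes, provided that the higher mean reached 5 CPM and the libraries of both groups did not overlap. A list of 19 early zygotic markers in the table had 10 genes without counts at WT stage 3 and 0 at WT stage 8.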

Additional observations from a re-analysis of the deposited data

Results flagged for a closer look

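The results below rest on tests in the fit over all libraries. They compare effects at different stages, or double MO with the sum of the single effects. Genes are given where the difference was at least 2-fold and was called in every setting and left-out library. The 2-fold limit was set after the values were seen. No explanation is weighed. The departure of double MO from the sum of the single effects was called for 39 of 69 members at stage 7 (34.3% of all genes called). There ncaph stood at -1.02, bub1b at 1.14, mad2l1 at 1.36 and cenpv at 1.90 on the log2 scale. At stage 8 the departure was called for 33 members (35.9% of all genes called). There cenpc stood at -2.10, dsn1 at 1.02, zwilch at 1.03, bub1b at 1.21, cenps at 2.19 and cenpv at 2.97. A positive value means that the double MO level was above the sum of the single effects. An effect common to all injected embryos would also give a departure, of opposite sign, and cannot be told apart. The same holds for a difference tied to the column name style of E2F1 MO.

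The E2F1 MO effect at stage 7 minus that at stage 6 was called for 28 of 69 members (29.5% of all genes called). In that test mad2l1 stood at -1.02 and ncaph at 1.12, and only the stage 7 comparison crosses the change in column name style. The E2F1 MO effect at stage 8 minus that at stage 7 was called for 34 (39% of all genes), with cenps at -1.43 and cenpc at 1.37. The OTX1 MO effect at stage 8 minus that at stage 7 was called for 28 (31.8% of all genes). There cenpj stood at 1.03, ska2 at 1.72 and cenpc at 1.78. cenpv and ska2 were below 5 CPM in most of these groups.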

How the results depend on the processing

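Counts of called members stayed within 1.5 times of the reported ones with RLE factors, total counts alone, no filter on low counts, the replicate block and DESeq2, apart from these. DESeq2 called 35 members instead of 23 at WT stage 6 against stage 5, 9 instead of 5 for E2F1 MO at stage 4, 4 instead of 2 for E2F1 MO at stage 6 and 5 instead of 3 for rescue against WT at stage 6. Total counts alone gave 7 instead of 12 for E2F1 MO at stage 3. Without a filter rescue against E2F1 MO at stage 6 had 1 call instead of 0. The cause of these differences was not tested. With 1 library left out the counts ran from 6 to 13 for WT stage 4 against 3, 15 to 18 for stage 6 against 5, 11 to 14 for stage 9 against 8, 2 to 12, 1 to 4 and 2 to 5 for E2F1 MO at stages 3, 4 and 5, and 2 to 13 and 2 to 4 for double MO against OTX1 MO at stages 7 and 8. In these refits the dispersion trend of all libraries was kept, and the lone library of a group is assumed to vary like the other groups. For these refits and the other settings the share of all genes called is not given, so their counts have no background beside them. Of the 175 gene results printed, 161 kept their direction and call in every setting. The call of spc24 at WT stage 9 against 3 was lost with total counts alone (-0.13), as was that of ncaph2 (0.10). Calls lost without 1 library included that of anapc11 at WT stage 9 against 3 and 8 of double MO against OTX1 MO named above. That of anapc5 in E2F1 MO at stage 4 was the other (log2 change 0.30). The uncalled value of zw10 in E2F1 MO at stage 7 ran from -0.017 to 0.088 with 1 library left out, and that of smc1b at WT stage 9 against 3 from -0.43 to 0.67, with -0.0012 by DESeq2. The labels do not say whether same-numbered libraries belong together. The correlation of their deviations from the group means ran from -0.178 to 0.305 (median 0.001), and 3 of 231 pairs of groups passed 0.1. A median over all pairs cannot show whether a few groups shared an origin by number. With the replicate block the count was 51 for E2F1 MO at stage 7, 43 at stage 8 and 55 instead of 57 at WT stage 13 against 10, and no count moved by over 2. With 2 libraries against 2 an exact permutation test could not go below p = 0.333, so calls rest on the spread shared over all groups. Depth limited cenpv, smc1b, cenpp and early ska2, which stood at a few CPM.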
